A study of Homo sapiens with 8 samples.

Results

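The transcripts of 10 enzymes of glycolysis (HK2, GPI, PFKL, PFKM, PFKP, ALDOA, PGK1, ENO1, PKM and LDHA) were followed in SUDHL6 cells, an established human B-cell lymphoma line. The members were taken by gene symbol, and all 10 were in each of the 3 deposited tables, among 17467 genes that the tables share. Cells had been given MS8815, EPZ-6438 or MS8815N at 2.5 µM or the DMSO vehicle for 18 h, and each of these 4 groups had 2 RNA-seq libraries. The labels call MS8815 a PROTAC against EZH2, that is, a molecule that brings its target to a ubiquitin ligase for degradation. EPZ-6438 (tazemetostat) is labelled as the matched inhibitor of the catalytic SET domain, and the analog MS8815N as a control that is no PROTAC. EZH2 is the methyltransferase of polycomb repressive complex 2, which marks histone H3 at silent genes. One cell line was used, and the labels speak of duplicates without saying whether they were separate cultures, so every p-value rests on the spread of 2 libraries a group, which could be technical only. Libraries were built with either of 2 kits, and the labels do not say which kit served which library. The compounds act on EZH2 protein, which was not analysed here.

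Glycolysis turns glucose into pyruvate in the cytosol and yields ATP and NADH without oxygen. Hexokinases trap glucose as glucose 6-phosphate, phosphofructokinases commit the sugar to breakdown, and the later enzymes from aldolase to pyruvate kinase split it and recover ATP. Lactate dehydrogenase reduces pyruvate to lactate and so restores NAD+. Proliferating B cells and lymphoma cells use this route heavily, and many of its genes are known targets of MYC and of the hypoxia-inducible factors.

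The 2 MS8815 libraries stood apart from the other 6. Their estimated depth was 12.9 and 14.6 M reads, against 26.0 to 34.1 M reads in the EPZ-6438 and MS8815N libraries and 30.9 to 31.7 M reads in the DMSO libraries. Of 15 tested pan-B genes, 14 were lower with MS8815 (median log2 fold change -1.02), and their summed level was 89141 to 90122 normalised counts with MS8815, against 180225 to 181415 with DMSO. Of 8 epithelial markers 7 were higher (median 3.98), with a summed level of 14244 to 14548 with MS8815 and 830 to 909 with DMSO over the 7 markers in all tables. Of 8 tested markers of fibroblasts and other adherent cells 7 were higher (median 3.94), with 15798 to 15975 with MS8815 and 811 to 1109 with DMSO. Zeros were counted only for markers in all tables, namely 15 of 16 listed pan-B, 7 of 8 epithelial and 7 of 10 adherent-cell markers. None of these was at 0 in both libraries of a group. Listed genes missing from any table were not counted, so this cannot show whether a listed marker was absent. No marker of these lists was called with EPZ-6438 or MS8815N. There the epithelial sums were 1028 to 1186 and 1208 to 1238, and the adherent sums 1229 to 1324 and 1299 to 1510. Among T-cell and NK-cell markers 0 of 4 were called with MS8815, and among myeloid markers 2 of 4 were higher. The 15 measured pan-B genes were present in every group, but they were taken from genes in all tables, so their presence is little of a test. The MS8815 libraries thus held more of the listed epithelial and adherent-cell transcripts than any other group. Both libraries of the MS8815 group share this, so no value for MS8815 can be given without it, and its part in the results was not tested. Whether these transcripts came from other cells or from the SUDHL6 cells themselves was not tested. In such bulk RNA a change in the number of cells of a type, in RNA per cell or in expression within the cells cannot be told apart.

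Levels are given as normalised counts, the deposited values with their transform inverted and all 8 libraries on one scale. Divided by the length of the main transcript, the DMSO level was highest for the enolase gene ENO1, with 22385 ± 363 normalised counts per kb (SD, n = 2), then for LDHA with 20233 ± 317 and for PKM with 11343 ± 24.2. ALDOA, with 7746 ± 12.8 per kb, and GPI, with 4514 ± 65.1, followed. PFKM (3247 ± 98.0) and PFKP (3246 ± 47.4) did not differ beyond their spread. PGK1 had 2612 and 2540 per kb and PFKL 2521 and 2364, close together but without overlap. HK2 was the lowest with 657 ± 3.94 per kb. The places of GPI, PFKL, PFKM, PFKP and PGK1 change with the transcript length used, whereas ENO1, LDHA, PKM, ALDOA and HK2 kept theirs with the median length of coding transcripts. With MS8815, PKM stood at 20475 ± 18.1 per kb, above LDHA at 19348 ± 6.58, and PFKM at 1801 ± 163 was the lowest but for HK2.

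With MS8815 the 10 transcripts moved in different directions. PKM and ENO1 were higher than with DMSO, while PFKM, HK2, PFKL, PGK1 and GPI were lower, and PFKP, ALDOA and LDHA did not pass the test. Thus 2 were called higher and 5 lower at an adjusted p under 0.05 (limma, Benjamini-Hochberg over the whole table), beside 46.9% of all 18744 genes called, 24.5% higher and 22.4% lower. In the upper 50% of genes by mean level, where all 10 lie, 61.7% were called, 18.7% higher and 43.0% lower. The median log2 fold change of the 10 was -0.11, beside 0 for all genes. The members' count is thus not far from the background. Their log2 fold changes ran from -0.85 for PFKM to 0.85 for PKM, within the range of all genes, of which 8.4% had a lower value than PFKM and 72.5% a lower value than PKM. The directions hold for the deposited normalisation. After quantile normalisation 4 were higher and 2 lower, beside 48.7% of all genes called, 19.8% higher and 28.9% lower. After scaling to the pan-B genes 9 were higher and 0 lower, beside 72.5% of all genes called, 71.7% higher and 0.790% lower.

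**Figure D1:**
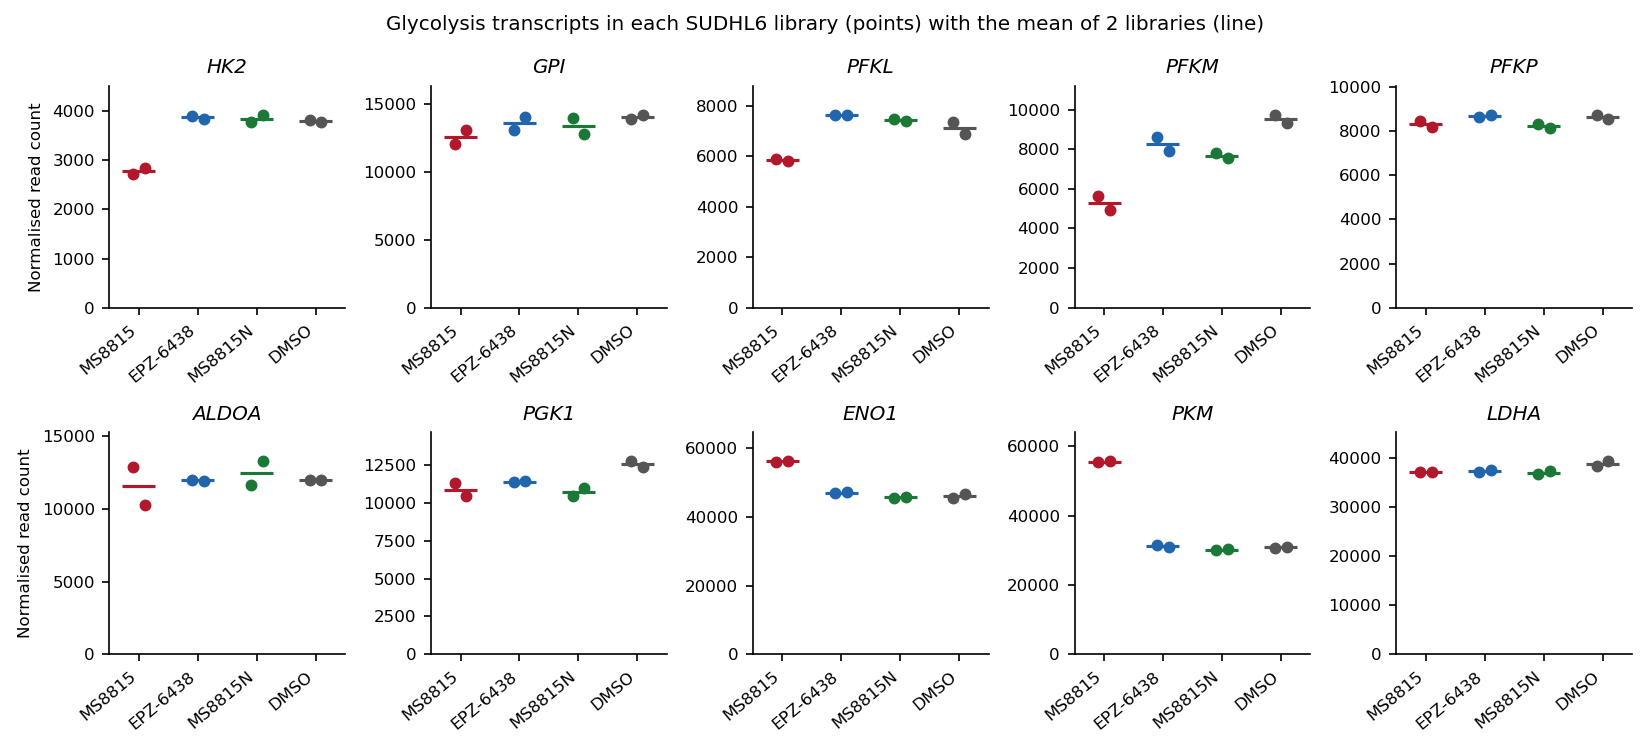
Normalised read count (vertical axis, from 0) of each of the 10 transcripts in the 2 libraries of MS8815, EPZ-6438, MS8815N and DMSO, with points for libraries and a line for the group mean. PKM and ENO1 stand highest with MS8815 and HK2, PFKL and PFKM lowest, with no overlap with any other group, on the deposited scale; scaling to pan-B genes turns HK2, PFKL and PFKM upward.

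HK2 encodes the inducible hexokinase that sits on mitochondria and makes glucose 6-phosphate (GRCh38 chromosome 2, 74833981 to 74893359). It had 2720 and 2846 normalised counts with MS8815, 3895 and 3843 with EPZ-6438, 3764 and 3917 with MS8815N, and 3810 and 3778 with DMSO. Both MS8815 libraries lay below the other 6. Among these the MS8815N values overlapped the other groups, and both EPZ-6438 values lay slightly above both DMSO values. The log2 fold change was -0.45 ± 0.06 (SE, n = 2 each, limma adjusted p = 0.0014), or 1.36-fold lower than DMSO, and it was -0.24 after quantile normalisation and 0.59 after scaling to pan-B genes.

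GPI, the isomerase that turns glucose 6-phosphate into fructose 6-phosphate (chromosome 19, 34359480 to 34402413), had 12100 and 13083 with MS8815, 13132 and 14089 with EPZ-6438, 13985 and 12804 with MS8815N, and 13928 and 14215 with DMSO. The MS8815 values lay below those of DMSO, by a margin no larger than the difference between the MS8815 libraries. Its log2 fold change of -0.16 ± 0.05 passed narrowly (limma adjusted p = 0.0336). The call was lost without DMSO replicate 1 (adjusted p = 0.146), without DMSO replicate 2 (0.218) and without MS8815 replicate 1 (-0.11, adjusted p = 0.0933), and the value was 0.17 after quantile normalisation and 0.88 after scaling to pan-B genes.

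The 3 phosphofructokinase genes, whose products form the tetramers that catalyse the committed step, moved apart. PFKM, the muscle-type subunit (chromosome 12, 48105139 to 48146404), had 5624 and 4947 normalised counts with MS8815, 8620 and 7901 with EPZ-6438, 7813 and 7545 with MS8815N, and 9733 and 9326 with DMSO. All 6 compound-treated libraries lay below both DMSO libraries, and the MS8815 libraries were the lowest. Its log2 fold change with MS8815 was -0.85 ± 0.07 (limma adjusted p = 0.0002), 1.81-fold lower. Quantile normalisation left it at -0.54 (adjusted p = 0.0033), and scaling to pan-B genes turned it to 0.19 (adjusted p = 0.0617), on a scale where the median of all genes was 1.016.

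PFKL, the liver-type subunit (chromosome 21, 44300051 to 44327376), had 5893 and 5798 with MS8815, 7635 and 7632 with EPZ-6438, 7466 and 7404 with MS8815N, and 7342 and 6885 with DMSO. The MS8815 libraries were below all others, and the other compounds lay above DMSO. The log2 fold change with MS8815 was -0.28 ± 0.05 (limma adjusted p = 0.0048), which leaving out DMSO replicate 1 changed to an adjusted p of 0.0656, and it was 0.01 after quantile normalisation and 0.76 after scaling to pan-B genes. PFKP, the platelet-type subunit (chromosome 10, 3066333 to 3137712), had 8433 and 8175 with MS8815, 8645 and 8723 with EPZ-6438, 8297 and 8147 with MS8815N, and 8705 and 8527 with DMSO. All 8 values lay close together, and the log2 fold change with MS8815 was -0.05 (95% confidence interval -0.15 to 0.05, limma adjusted p = 0.310). It was called higher under both other scalings, quantile normalisation giving 0.28 with an adjusted p of 0.0043 and the pan-B scale 0.99.

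ALDOA, the aldolase that splits fructose 1,6-bisphosphate (chromosome 16, 30064164 to 30070457), had 12860 and 10251 normalised counts with MS8815, 12001 and 11928 with EPZ-6438, 11622 and 13269 with MS8815N, and 12021 and 11993 with DMSO. The MS8815 libraries lay on either side of DMSO and differed by 0.327 on the log2 scale, the largest replicate difference of any member. The log2 fold change was -0.06 (95% confidence interval -0.32 to 0.19, limma adjusted p = 0.665), and without MS8815 replicate 1 it was -0.23 with an adjusted p of 0.018. Quantile normalisation gave 0.26, not called (adjusted p = 0.0897), and the pan-B scale 0.98, called. PGK1 encodes phosphoglycerate kinase, the first ATP-yielding step (chromosome X, 77910739 to 78129296). Its normalised counts were 11318 and 10484 with MS8815, 11407 and 11446 with EPZ-6438, 10499 and 11013 with MS8815N, and 12767 and 12415 with DMSO. Every compound-treated library lay below both DMSO libraries. With MS8815 the log2 fold change was -0.21 ± 0.05 (limma adjusted p = 0.0132), which became 0.12 after quantile normalisation and 0.83 after scaling to pan-B genes. The call was lost without DMSO replicate 1 (adjusted p = 0.131) or DMSO replicate 2 (0.101).

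ENO1, the main enolase, which forms phosphoenolpyruvate (chromosome 1, 8861000 to 8879250), had 56169 and 56212 normalised counts with MS8815, 47050 and 47225 with EPZ-6438, 45642 and 45937 with MS8815N, and 45649 and 46709 with DMSO. The MS8815 libraries were above all others. The log2 fold change was 0.28 ± 0.03 (limma adjusted p = 0.0006), 1.22-fold higher than DMSO, and stayed above 0 under both other scalings, at 0.21 and 1.33.

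PKM encodes the pyruvate kinase of most proliferating cells, which exists as the splice forms M1 and M2, not separated in these gene-level values (chromosome 15, 72199029 to 72231822). It had 55595 and 55665 normalised counts with MS8815, 31520 and 30846 with EPZ-6438, 29997 and 30322 with MS8815N, and 30774 and 30867 with DMSO. The other 6 libraries were within the same narrow band, far below the MS8815 pair. Its log2 fold change of 0.85 ± 0.02 was 1.80-fold higher than DMSO and called by limma (adjusted p = 1.32e-05). It was 0.90 after quantile normalisation and 1.89 after scaling to pan-B genes. It lay above the median of all genes each time, which on the pan-B scale follows from its deposited value.

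LDHA, the lactate-forming dehydrogenase subunit (chromosome 11, 18394388 to 18408425), had 37196 and 37178 with MS8815, 37134 and 37606 with EPZ-6438, 36670 and 37422 with MS8815N, and 38457 and 39317 with DMSO. All 6 compound-treated libraries were slightly below DMSO and overlapped each other. The log2 fold change with MS8815 was -0.06 (95% confidence interval -0.13 to 0.00, limma adjusted p = 0.112), and it passed the test in a limma fit without a variance trend (adjusted p = 0.0407) and in the joined fit of 8 libraries (0.0236). Quantile normalisation put it at 0.02 (adjusted p = 0.495), and scaling to pan-B genes at 0.98, where it was called. Several of these genes, among them PGK1, ENO1, PKM, LDHA, GPI and ALDOA, have processed pseudogenes, and how the deposited counting shared such reads is not given in the sources used here.

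EPZ-6438 blocks the catalytic domain of EZH2, and its libraries were set against DMSO at the same time point. No glycolysis member was called, 0 of 10, beside 0.0328% of 18320 genes (6 genes by limma; 3076 had an unadjusted p under 0.05). The log2 fold changes ran from -0.21 to 0.10. PFKM, at -0.21 ± 0.05 (limma adjusted p = 0.122), and PGK1, at -0.14 ± 0.03 (adjusted p = 0.0971), were the lowest, with both EPZ-6438 libraries below both DMSO libraries. PGK1 passed when the lower 50% of genes was left out of the fit (limma adjusted p = 0.0486), where 3.19% of genes were called. PFKL was the highest, at 0.10 (95% confidence interval 0.01 to 0.20, adjusted p = 0.255). PKM (0.02, interval -0.03 to 0.06) and ENO1 (0.03, interval -0.01 to 0.07), the members called higher with MS8815, had intervals near 0. These hold for the deposited scale and rest on 2 libraries a group. After quantile normalisation PKM was at 0.03 and ENO1 at 0.06, neither called.

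With MS8815N 1 of 10 members was called lower, beside 0.533% of 18398 genes called in either direction and 0.245% called lower (98 genes in all, and 2894 at an unadjusted p under 0.05). When the upper 50% of genes by level was fitted alone, 4.15% were called and 2.84% called lower, with 2 members lower. The member called over all genes was PFKM, at -0.31 ± 0.04 (limma adjusted p = 0.0265), or 1.24-fold lower. Its call was lost after quantile normalisation (-0.26, adjusted p = 0.0521), in the joined fit of 8 libraries (adjusted p = 0.108) and when any of the 4 libraries was left out (-0.34 to -0.28, adjusted p from 0.0867 to 0.448), namely DMSO replicate 1 (0.152), DMSO replicate 2 (0.0867), MS8815N replicate 1 (0.381) and MS8815N replicate 2 (0.448). PGK1 was at -0.23 ± 0.03 and just missed the threshold (adjusted p = 0.0508). It passed in 5 of the other limma fits, with adjusted p-values of 0.0201 to 0.0474. It missed the threshold after quantile normalisation (-0.18, limma adjusted p = 0.105) and after scaling to pan-B genes (-0.19, adjusted p = 0.081). The joined fit of 8 libraries did not call PGK1 either, nor did the fits without a library, where it ran from -0.26 to -0.19. The other 8 members ran from -0.07 to 0.06. After quantile normalisation LDHA passed (-0.11, adjusted p = 0.0269). All 3 compounds were set against the same DMSO pair, so their comparisons are not independent.

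**Figure D2:**
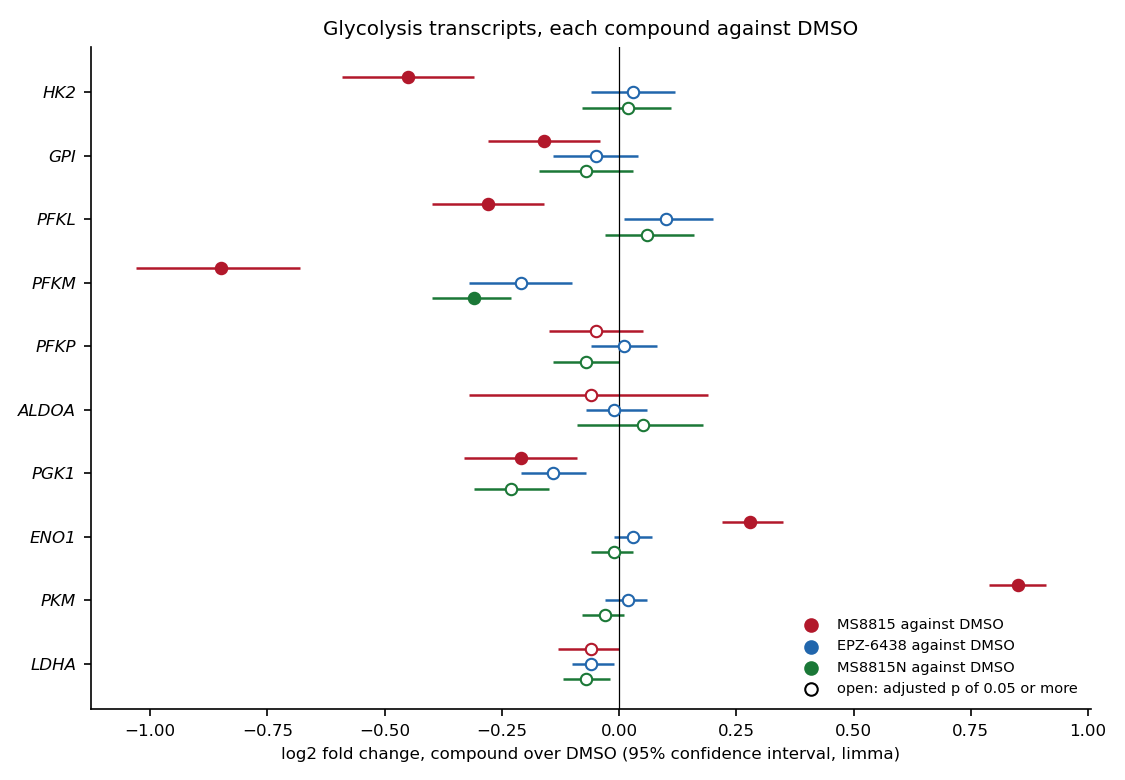
Log2 fold change over DMSO (horizontal axis) with its 95% confidence interval for each of the 10 transcripts and each compound, filled where the adjusted p is under 0.05. MS8815 spans -0.85 for PFKM to 0.85 for PKM on the deposited scale, whereas EPZ-6438 and MS8815N stay between -0.31 and 0.10.

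Compounds were also set against each other in one limma fit of all 8 libraries. MS8815 against MS8815N, the degrader against its analog that is no PROTAC at the same dose and time, gave 2 members higher and 3 lower, beside 50.6% of 17467 genes called, 24.2% higher and 26.3% lower. PKM was higher by 0.88 ± 0.02 and ENO1 by 0.30 ± 0.02, and HK2 (-0.46 ± 0.04), PFKL (-0.35 ± 0.04) and PFKM (-0.54 ± 0.07) were lower. Scaling to pan-B genes turned HK2, PFKL and PFKM to 0.54, 0.66 and 0.46. PGK1, called with MS8815 against DMSO, had a difference of 0.02 here (95% confidence interval -0.08 to 0.12), LDHA one of 0.01 (-0.04 to 0.05) and PFKP one of 0.01 (-0.06 to 0.09). All 3 were called higher after quantile normalisation, PGK1 at 0.30 (limma adjusted p = 0.00034), LDHA at 0.15 (0.00014) and PFKP at 0.28 (0.00023), and after scaling to pan-B genes, at 1.02, 1.01 and 1.02.

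MS8815 against EPZ-6438 also had 2 members higher and 3 lower, beside 50.6% of genes called, 24.2% higher and 26.3% lower. PKM was at 0.84 ± 0.02, ENO1 at 0.25 ± 0.02, HK2 at -0.48 ± 0.04, PFKL at -0.38 ± 0.04 and PFKM at -0.65 ± 0.07, and scaling to pan-B genes turned these last 3 to 0.58, 0.67 and 0.41. After quantile normalisation PGK1 (0.21), PFKP (0.20) and LDHA (0.07) were called higher as well. Both comparisons share the MS8815 libraries. MS8815N against EPZ-6438 called 0 of 10 members, beside 0.172% of genes (30 by limma, and 1070 at an unadjusted p under 0.05). The 95% confidence intervals of all 10 lay between -0.26 and 0.28, with ALDOA the widest (-0.17 to 0.28) and PKM at -0.05 (-0.09 to -0.01). PFKM, at -0.10, had an interval from -0.26 to 0.05.

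A share of a family within a library does not change when the library is scaled by a constant factor, as in the scaling to pan-B genes. Quantile normalisation can change it, and the shares here are those of the deposited scale. Among the phosphofructokinases, by level per kb, PFKM made up 26.9% and 24.9% with MS8815, 33.3% and 31.3% with EPZ-6438, 31.9% and 31.4% with MS8815N, and 36.4% and 36.3% with DMSO. PFKP took 44.6% and 45.6% with MS8815, against 36.0% and 36.7% with DMSO, and PFKL 28.4% and 29.5% with MS8815, 29.7% and 30.5% with EPZ-6438, 30.7% and 31.1% with MS8815N, and 27.7% and 27.0% with DMSO. The PFKL share was thus above DMSO with each compound, by 1.62 points with MS8815, 2.78 with EPZ-6438 and 3.56 with MS8815N. The PFKM share was 10.4 percentage points lower with MS8815 than with DMSO, 4.02 points lower with EPZ-6438 and 4.69 points lower with MS8815N. In each case the groups did not overlap (two-sided exact permutation p = 0.33, the smallest that 2 against 2 libraries allow).

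LDHA, the lactate-forming dehydrogenase subunit, held 72.1% and 72.0% of the LDHA and LDHB level per kb with MS8815, against 66.8% and 66.5% with DMSO. It held 66.2% to 66.8% in the EPZ-6438 and MS8815N libraries. HK2 made up 15.9% ± 0.863 of the hexokinase level with MS8815, 18.8% ± 0.156 with EPZ-6438, 18.6% ± 0.345 with MS8815N and 17.4% ± 0.194 in the DMSO libraries (SD, n = 2 each). The difference from DMSO was -1.49 points with MS8815 (-0.881 if MS8815 replicate 1 is left out), 1.38 with EPZ-6438 and 1.19 with MS8815N. HK1, the housekeeping hexokinase, was the main form throughout. ENO1 made up 98.0% of the enolase level with MS8815 and 99.3% with DMSO. ENO2, the enolase of neurons, held 1.53% ± 0.126 with MS8815 and 0.112% ± 0.00273 with DMSO, and ALDOC 1.45% ± 0.262 of the aldolase level with MS8815 and 0.565% ± 0.0189 with DMSO.

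**Figure D3:**
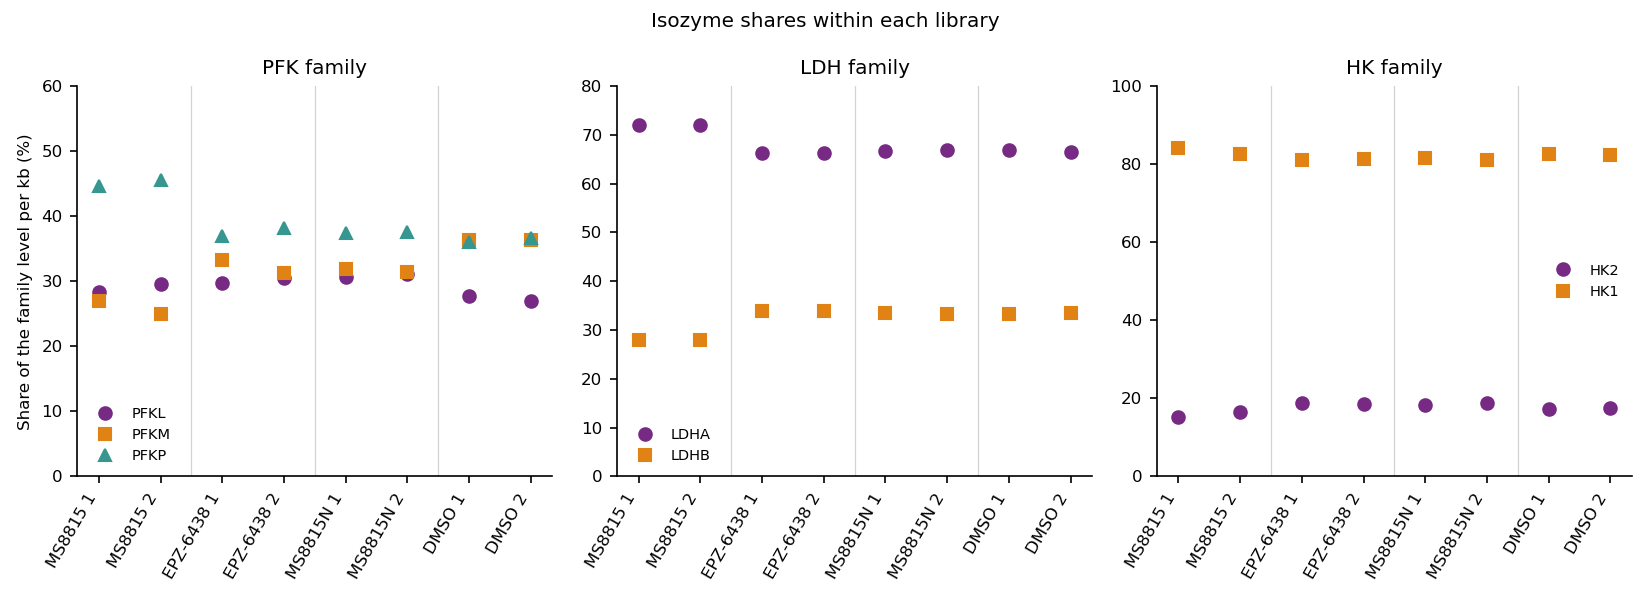
Share of each isozyme in its family's level per kb (vertical axis, percent) in the 8 libraries for phosphofructokinases, lactate dehydrogenases and hexokinases, 1 point per library. The PFKM share is lowest in the MS8815 libraries and highest in the DMSO libraries, and the LDHA share is highest in the MS8815 libraries.

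The rest of the pathway was read from lists of related genes, against the same background of 24.5% of all genes higher, 22.4% lower and 46.9% called with MS8815. Of 15 tested other glycolytic enzymes, 5 were higher and 3 lower (list median 0.36), or 8 of 15 called, a share near that background. ENO2 had 1146 and 1020 normalised counts with MS8815, against 64.4 and 63.7 with DMSO. Its log2 fold change of 4.05 ± 0.16 is as large as that of the epithelial markers (median 3.98) in the same libraries. In the lists below the highest values were 3.86 for transport, 3.89 for control, 2.94 for pyruvate entry and 3.60 for gluconeogenesis. The pentose phosphate pathway reached 0.77. Whether such rises share a source with the marker rise was not tested. TPI1, the triose phosphate isomerase, fell by 0.43 on the log2 scale, as did LDHB, the heart-type dehydrogenase subunit, and HK1 was lower at -0.30. These 3 stood at 0.61, 0.61 and 0.74 after scaling to pan-B genes, and HK1 at 0.03 after quantile normalisation. GAPDH (-0.05, limma adjusted p = 0.275) and PGAM1 (0.03, adjusted p = 0.484), which act between aldolase and enolase, were not called as deposited. Both were called under the other scalings, GAPDH at -1.25 and PGAM1 at 0.35 after quantile normalisation, and 0.99 and 1.07 after scaling to pan-B genes. Yet GAPDH had 130380 and 133127 normalised counts with MS8815, against 134375 and 138100 with DMSO. Quantile normalisation assigns values by rank, and why GAPDH moved so far under it was not tested.

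Of 8 genes of glucose and lactate transport, 4 were higher and 2 lower (median 0.51), beside 24.5% and 22.4% of all genes. SLC16A3, the lactate exporter MCT4, had 6194 and 5898 normalised counts with MS8815, against 754 and 812 with DMSO (log2 fold change 2.95 ± 0.07). SLC2A1, the glucose transporter GLUT1, had 7099 and 6842 with MS8815, against 3974 and 4075 with DMSO (0.79 ± 0.05), and SLC2A3, the transporter GLUT3, 451 and 355 with MS8815, against 36.1 and 18.6 with DMSO (3.86 ± 0.37). SLC16A7, which encodes MCT2, was lower at -0.82 ± 0.09 (0.22 after scaling to pan-B genes).

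Among 15 genes that control glycolysis, 7 were higher and 4 lower (median 0.26), beside 24.5% and 22.4% of all genes. HIF1A, the oxygen-regulated subunit of hypoxia-inducible factor, had 5859 and 5540 normalised counts with MS8815, against 2082 and 1974 with DMSO (1.49 ± 0.06). PFKFB4, a kinase that makes the phosphofructokinase activator fructose 2,6-bisphosphate, was higher by 2.36 ± 0.21, and PDK2, a kinase that switches off pyruvate dehydrogenase, by 3.77 ± 0.32, to 352 and 239 normalised counts with MS8815, against 21.6 and 18.4 with DMSO. PDK1 and PDK3, kinases of the same family, were lower. PDK1 had 1109 and 1064 with MS8815, against 1579 and 1476 with DMSO (-0.49 ± 0.08), and PDK3 had 392 and 352 with MS8815, against 800 and 886 with DMSO (-1.18 ± 0.13). Quantile normalisation gave -0.44 for PDK1 and -1.59 for PDK3, and the pan-B scale 0.55 for PDK1 and -0.14 for PDK3, which was then not called. MYC, the transcription factor that drives many glycolysis genes, had 5516 and 6125 with MS8815, against 8199 and 7954 with DMSO (-0.47 ± 0.06, limma adjusted p = 0.0014). Quantile normalisation gave -0.17 for MYC, which was not called (adjusted p = 0.0574), and the pan-B scale gave 0.57. TIGAR, which removes fructose 2,6-bisphosphate, was at 448 and 441 with MS8815, against 897 and 998 with DMSO (-1.09 ± 0.11, and -0.05 after scaling to pan-B genes).

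Pyruvate entry into mitochondria had 1 of 8 genes higher and 6 lower (median -0.35), beside 24.5% and 22.4% of all genes, or 18.7% and 43.0% in the upper 50% by level. PDHA1, the catalytic subunit of pyruvate dehydrogenase, had 5706 and 5303 normalised counts with MS8815, against 10987 and 10704 with DMSO (-0.98 ± 0.05). MPC2, a subunit of the mitochondrial pyruvate carrier, was at -0.53 and DLD, the dehydrogenase component E3, at -0.45 (limma adjusted p = 0.0527 if DMSO replicate 1 is left out), while PC, pyruvate carboxylase, was higher at 2.94 ± 0.22. After scaling to pan-B genes PDHA1 was at 0.06, MPC2 at 0.51 and DLD at 0.59.

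In the pentose phosphate pathway 2 of 7 were higher and 4 lower (median -0.23), beside 24.5% and 22.4% of all genes. In the upper 50% of genes by level the shares were 18.7% and 43.0%. TALDO1, transaldolase, had 15585 and 16514 with MS8815, against 9227 and 9650 with DMSO (0.77 ± 0.05). Its partner TKT, transketolase, had 16422 and 16249 with MS8815, against 25572 and 25949 with DMSO (-0.66 ± 0.03), and RPIA (-0.86) and RPE (-0.77), which interconvert pentose phosphates, were lower. The call of RPE was lost when either DMSO library was left out (limma adjusted p up to 0.0854). Scaling to pan-B genes turned TKT, RPIA and RPE to 0.39, 0.18 and 0.27.

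Of 4 tested gluconeogenesis genes 2 were higher and 0 lower (median 0.32), beside 24.5% and 22.4% of all genes. FBP1, which runs the phosphofructokinase step backwards, was low in all groups, with 102 and 135 normalised counts with MS8815 and 18.2 and 3.65 with DMSO (3.60 ± 0.69, and 2.61 if DMSO replicate 2 is left out, adjusted p = 0.0561). G6PC3 was at 0.10 (adjusted p = 0.506) and PCK1 at -0.50 (0.605), neither called. PCK2, the mitochondrial phosphoenolpyruvate carboxykinase, had 1417 and 1199 with MS8815, 994 and 994 with EPZ-6438, 1812 and 1918 with MS8815N, and 920 and 878 with DMSO. It was the only gene of the 6 related lists called with MS8815N (1.05 ± 0.06, limma adjusted p = 0.0041), and none was called with EPZ-6438. Its rise with MS8815 was 0.54 ± 0.11 (limma adjusted p = 0.0115), and leaving out DMSO replicate 1 or DMSO replicate 2 ended the call (adjusted p = 0.119 and 0.141).

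**Figure D4:**
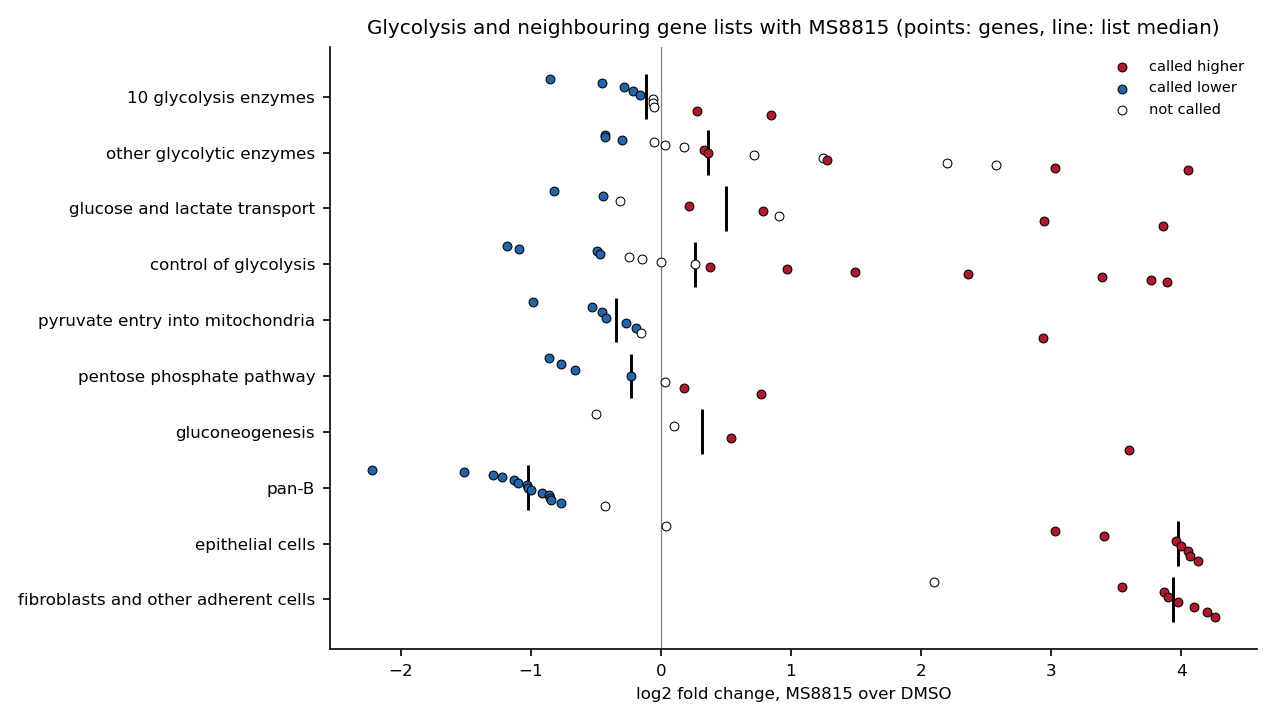
Log2 fold change of MS8815 over DMSO (horizontal axis, deposited scale) for each gene of the 10 glycolysis enzymes, 6 related lists and 3 marker lists, coloured by call, with the list median as a line. The 10 enzymes lie within -0.85 to 0.85, the pan-B genes around -1.02, and the epithelial and adherent-cell markers around 3.98 and 3.94; scaling to pan-B genes moves the median of all genes to 1.016.

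The scale on which MS8815 is read decides the sign of most members. As deposited, the median of all genes was 0, after quantile normalisation -0.2, and after scaling to 15 pan-B genes 1.016. Scaling to pan-B genes divides each library by a constant factor, so it keeps a gene's place relative to that median almost unchanged by construction. Only quantile normalisation could move that place. As deposited and after quantile normalisation, PKM and ENO1 lay above the median and PFKM below it. HK2 lay below it as deposited, and near it after quantile normalisation, at -0.24. GPI, PFKL and PGK1 lay below it as deposited, and above it after quantile normalisation, at 0.17, 0.01 and 0.12. LDHA, ALDOA and PFKP were near the median as deposited (-0.06, -0.06 and -0.05), and so also on the pan-B scale (0.98, 0.98 and 0.99). After quantile normalisation they lay above it, at 0.02, 0.26 and 0.28.

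**Figure D5:**
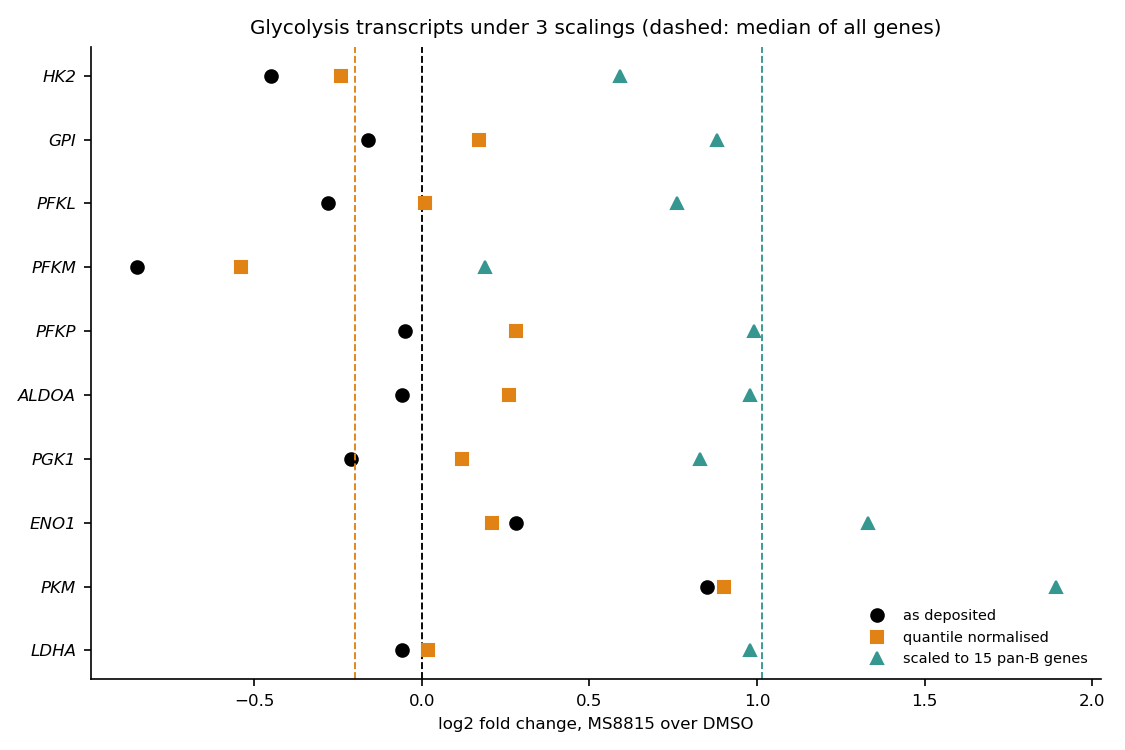
Log2 fold change of MS8815 over DMSO (horizontal axis) of the 10 transcripts on the deposited scale, after quantile normalisation and on a scale set by 15 pan-B genes, with the median of all genes as a dashed line for each. PKM keeps the highest value and PFKM the lowest under all 3 scalings, while the sign of most others depends on the scaling. The pan-B scale keeps the deposited order by construction.

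Promoter sequence is shown for the 5 members that were called with MS8815 and have a single RefSeq start, so that those higher (ENO1, PKM) can be read beside those lower (GPI, PFKL, PGK1). The 250 bases before the start are given 5′ to 3′ on the gene's strand, from RefSeq on GRCh38.p14. Capitals mark ACGTG or GCGTG on either strand (CACGT or CACGC when read here), the core letters of the hypoxia response element. ACGTG is also contained in CACGTG, the E-box bound by MYC. The windows are chr19:34364742-34364991 on the plus strand for GPI, chr21:44299803-44300052 plus for PFKL, chrX:78103998-78104247 plus for PGK1, chr1:8878687-8878936 minus for ENO1 and chr15:72231191-72231440 minus for PKM.
GPI: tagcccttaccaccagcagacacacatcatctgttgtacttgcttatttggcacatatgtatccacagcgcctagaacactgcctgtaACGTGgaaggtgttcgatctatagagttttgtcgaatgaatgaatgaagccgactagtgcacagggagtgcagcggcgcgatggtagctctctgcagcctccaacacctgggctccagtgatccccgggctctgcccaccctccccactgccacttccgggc
PFKL: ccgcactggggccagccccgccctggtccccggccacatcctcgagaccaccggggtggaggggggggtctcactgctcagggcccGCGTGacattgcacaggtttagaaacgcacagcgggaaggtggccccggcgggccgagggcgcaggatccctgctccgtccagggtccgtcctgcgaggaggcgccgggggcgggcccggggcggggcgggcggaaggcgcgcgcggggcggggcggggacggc
PGK1: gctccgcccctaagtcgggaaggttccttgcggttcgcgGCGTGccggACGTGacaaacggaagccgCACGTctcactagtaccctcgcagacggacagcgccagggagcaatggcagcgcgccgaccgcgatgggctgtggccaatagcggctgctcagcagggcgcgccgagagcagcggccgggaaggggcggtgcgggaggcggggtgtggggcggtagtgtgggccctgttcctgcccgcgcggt
ENO1: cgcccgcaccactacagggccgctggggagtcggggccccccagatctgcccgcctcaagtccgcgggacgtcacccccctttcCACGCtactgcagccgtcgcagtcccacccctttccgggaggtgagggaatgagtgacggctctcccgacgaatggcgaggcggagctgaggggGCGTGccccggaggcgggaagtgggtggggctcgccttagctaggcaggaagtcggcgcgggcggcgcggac
PKM: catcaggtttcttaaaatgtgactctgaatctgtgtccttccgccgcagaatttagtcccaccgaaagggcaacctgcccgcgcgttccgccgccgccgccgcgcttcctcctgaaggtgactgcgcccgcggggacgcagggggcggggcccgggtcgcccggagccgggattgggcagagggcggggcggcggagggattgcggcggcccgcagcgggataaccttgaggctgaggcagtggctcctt
PGK1 held 2 ACGTG and 1 GCGTG, ENO1 2 GCGTG, GPI 1 ACGTG, PFKL 1 GCGTG and PKM neither, and none of the 5 held CACGTG. In 35116 RefSeq promoters of the same length, 43.2% held ACGTG or GCGTG, 18.5% ACGTG, 32.2% GCGTG and 6.34% CACGTG. HK2 and PFKM, the members with the lowest values as deposited, have several RefSeq starts and are not printed. Both HK2 starts had matches, and 1 of the 7 PFKM starts had one. The directions are those of the deposited scale, and GPI, PFKL and PGK1 stood above 0 under both other scalings.

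By likeness to the members' median profile over the 8 libraries (Euclidean distance of the log2 levels centred on DMSO), the nearest of 8661 genes were SLC35F6 (0.061), NRDC (0.072), PHIP (0.074), RHOG (0.080) and GABARAP (0.081). The profile itself was flat. It stood at -0.11 and -0.17 in the MS8815 libraries, 0.00 in both EPZ-6438 libraries, and -0.04 in both MS8815N libraries. Single members ran from -0.76 to 0.85 in MS8815 replicate 1 and from -0.95 to 0.85 in MS8815 replicate 2. Likeness to the median is thus no likeness to each member.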

How the data were processed

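RNA was sequenced from 8 libraries of SUDHL6 cells, 2 per group. Per the submitters' processing notes, STAR 2.4.2, Salmon and GRCh38 were used. The authors deposited 3 tables, each of 1 compound with the same 2 DMSO libraries, in a log2-type unit that the table names give as the variance-stabilising transform of DESeq2. The transform was inverted in closed form to normalised counts, and all tables were joined on that of MS8815N through the shared DMSO libraries, which differed by constants (largest deviation 7.04e-11 on the log2 scale over 17552 genes). The median constant was used for 24 genes of the EPZ-6438 table and 10 of the MS8815 table. Depth was estimated from the step of 1 read, with 37.8% to 61.9% of low values on a whole multiple within 0.02, against 4% by chance. The members' estimated reads per library ran from 1040 to 49503.

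Each compound was compared with DMSO by limma 3.58.1 (R 4.3.3) with a variance trend on the deposited values of its table, two-sided, with Benjamini-Hochberg adjustment over all genes and a threshold of 0.05. Log2 fold changes, SEs and 95% intervals came from limma on log2(normalised count + 1). Compounds were compared in 1 fit of 8 libraries. Isozyme shares used the median length of GENCODE 29 principal transcripts, and an exact permutation test. All members are named, and from each related list up to 4 genes with the smallest p with MS8815, any gene called in another comparison, and the members' isozymes; GAPDH, PGAM1, MYC, PDK1 and PDK3 were added after their values were seen. The members, lists and tests were chosen with earlier results of these data known. Replicates differed by 2.95 to 4.84 times the sampling noise, so none was counted as a repeat deposit.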

Additional observations from a re-analysis of the deposited data

How the results depend on the processing

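The causes of the following changes were not tested unless stated. After quantile normalisation MS8815 against DMSO had 4 members higher and 2 lower, with GPI at 0.17, PFKL at 0.01, PFKP at 0.28, PGK1 at 0.12 and HK1 at 0.03. MS8815 against MS8815N then had 6 members higher, beside 20.2% of genes (GPI 0.17), and MS8815 against EPZ-6438 had 6 higher, beside 20.6% of genes (GPI 0.16, PFKP 0.20, PGK1 0.21, LDHA 0.07). Genes called were then 13 for EPZ-6438 against DMSO and 17 for MS8815N against EPZ-6438. After scaling to pan-B genes MS8815 against DMSO called 13589 genes and 9 members higher, 0 lower. HK2 was at 0.59, GPI at 0.88, PFKL at 0.76, PFKM at 0.19, PFKP at 0.99, ALDOA at 0.98, PGK1 at 0.83 and LDHA at 0.98. Related genes stood at 0.61 for TPI1, 0.61 for LDHB, 0.74 for HK1, 0.22 for SLC16A7, 0.06 for PDHA1, 0.51 for MPC2, 0.59 for DLD, 0.39 for TKT, 0.18 for RPIA and 0.27 for RPE. MS8815 against MS8815N then called 13548 genes (76.4% of all higher) and 10 members higher, 0 lower (HK2 0.54, GPI 0.92, PFKL 0.66, PFKM 0.46, ALDOA 0.89). MS8815 against EPZ-6438 called 13604 genes (76.8% higher) and 10 members higher, 0 lower (HK2 0.58, GPI 0.94, PFKL 0.67, PFKM 0.41, PFKP 0.99, ALDOA 1.00, PGK1 0.99, LDHA 1.05). On that scale 40 genes were called for EPZ-6438 against DMSO and 70 for MS8815N against EPZ-6438.

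Without the lower 50% of genes, where fewer genes are tested, 5782 genes were called for MS8815 against DMSO, 5635 against MS8815N and 5613 against EPZ-6438. The same filter gave 292 genes and 1 member lower for EPZ-6438 against DMSO, and 382 genes and 2 members lower for MS8815N against DMSO. Without the variance trend the counts were 169 genes for EPZ-6438, 252 genes and 2 members lower for MS8815N, and 4 genes for MS8815N against EPZ-6438. On log2 values they were 25 genes for EPZ-6438 and 2 members lower for MS8815N. The replicate numbers do not pair the libraries (correlation of deviations -0.0272 to 0.0225), and with a replicate block 10 genes were called for EPZ-6438, and 353 genes and 2 members lower for MS8815N. The joined fit of 8 libraries called 0 genes for EPZ-6438, and 65 genes and 0 members lower for MS8815N. A joined fit of 6 libraries without MS8815, chosen after seeing the data, called 184 genes for EPZ-6438, 298 genes and 2 members lower for MS8815N, and 73 genes for MS8815N against EPZ-6438.

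Leaving out each library in turn gave 3583 to 8932 genes and 2 to 5 members lower for MS8815 against DMSO (3657 genes and 2 members lower without DMSO replicate 1, 3583 and 3 without DMSO replicate 2), 0 genes for EPZ-6438, and 0 to 6 genes and 0 members lower for MS8815N. It gave 3 to 5 members lower for MS8815 against EPZ-6438, and 8 to 11 genes for MS8815N against EPZ-6438. A group left with 1 library was assumed to vary like the others. The share differences of MS8815 minus DMSO with other transcript lengths, chosen after seeing the data, were -8.66 points for PFKM (median coding length), 1.29 and 2.14 points for ENO2 (median coding and merged exon length) and 6.13 points for LDHA (merged exon length). Pseudocounts of 0.1 and 10 changed no call of a member in the comparisons between compounds. Against DMSO the p-values came from the deposited values, so a pseudocount could not change a call there. A count of 2 libraries a group and the lower depth of the MS8815 libraries limit the precision of small differences.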
